A study of Rattus norvegicus with 63 samples.

Results

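Glul, Oat, Rgn, Tbx3, Inmt and Slc1a2 are 6 genes known from hepatocytes around the central vein of the liver lobule, out of 10411 genes that the array annotation names with a single symbol. They were selected by symbol, and of several probe sets of a gene the one brightest on average across the 63 arrays was read. The choice was made with differences between compounds and vehicle in these livers already known, among them those of Oat, Glul and Inmt in DMN, of Rgn in DES and of Tbx3 in AA. Differences from vehicle are therefore given as descriptions: a call marks a probe set with an adjusted p under 0.05, and the share of all probe sets called stands beside the counts without being read as a test of the 6 genes.

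Expression was measured as log2 values on 1 array per animal in livers of male Wistar Hanover rats dosed by gastric gavage. There were 15 compounds and 6 vehicle control sets with 3 arrays each, which makes 45 compound arrays and 18 vehicle arrays. Against methylcellulose set 1 stood acetamide (AA, 3000 mg/kg/d, 14 days), dehydroepiandrosterone (DHEA, 600 mg/kg/d, 14 days), methylcarbamate (Mcarb, 400 mg/kg/d, 14 days), methapyrilene (MPy, 60 mg/kg/d, 7 days), thioacetamide (TAA, 19.2 mg/kg/d, 7 days) and Wy-14643 (Wy, 60 mg/kg/d, 3 days). Methylcellulose set 2 served cefuroxime (CFX, 250 mg/kg/d, 14 days) and nifedipine (Nif, 3 mg/kg/d, 14 days). Methylcellulose set 5 served diethylstilbestrol (DES, 10 mg/kg/d, 3 days), ethionine (ETH, 200 mg/kg/d, 14 days) and piperonylbutoxide (PBO, 1200 mg/kg/d, 3 days), and set 6 served phenobarbital (PB, 14 days, no dose in the labels). Corn oil set 3 (7 days) served C.I. Direct Black (CIDB, 146 mg/kg/d, 7 days) and dimethylnitrosamine (DMN, 4 mg/kg/d, 7 days), and corn oil set 4 (14 days) served cyproterone acetate (CPA, 100 mg/kg/d, 14 days). All methylcellulose controls are labelled 14 days, although the methods speak of matched times and name carboxymethyl cellulose for several compounds. For DES, PBO, Wy, MPy and TAA, compound and labelled dosing time therefore cannot be told apart. The labels give no age, the methods describe young adult rats, and the 3 animals of a group were picked from a larger dosed group by histopathology.

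The liver lobule is zoned from the portal field, where blood enters, to the central vein, where it leaves. Wnt ligands from endothelium at the central vein act through beta-catenin and TCF factors on the adjoining hepatocytes, which take up glutamate and ammonia and make glutamine, while hepatocytes near the portal field make urea and glucose. The pericentral zone also holds most of the cytochrome P450 enzymes that turn many of the compounds used here into reactive products. As a check of the tissue, 9 of 10 listed hepatocyte markers were measured, and their mean lay between 12.58 and 13.09 log2 on the 63 arrays. The lower end was Nif, at 12.58 to 12.65 in Nif arrays against 12.90 to 12.98 in set 2, with Cebpa (−1.69) and Hnf4a (−1.23) called lower. The other 60 arrays lay between 12.69 and 13.09. In these whole-liver samples, fewer pericentral hepatocytes and less RNA per cell cannot be told apart.

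Across 90 pairs of gene and compound, 22 were called lower and 3 higher than vehicle, and 65 were not called. Rgn was called lower in 9 compounds, Oat in 5, Inmt in 4, Glul in 3 and Slc1a2 in 1. Glul was called higher in ETH, and Tbx3 in AA and DHEA. A member was called in 12 compounds and none was called in Mcarb, CFX and Nif.

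**Figure D1:**
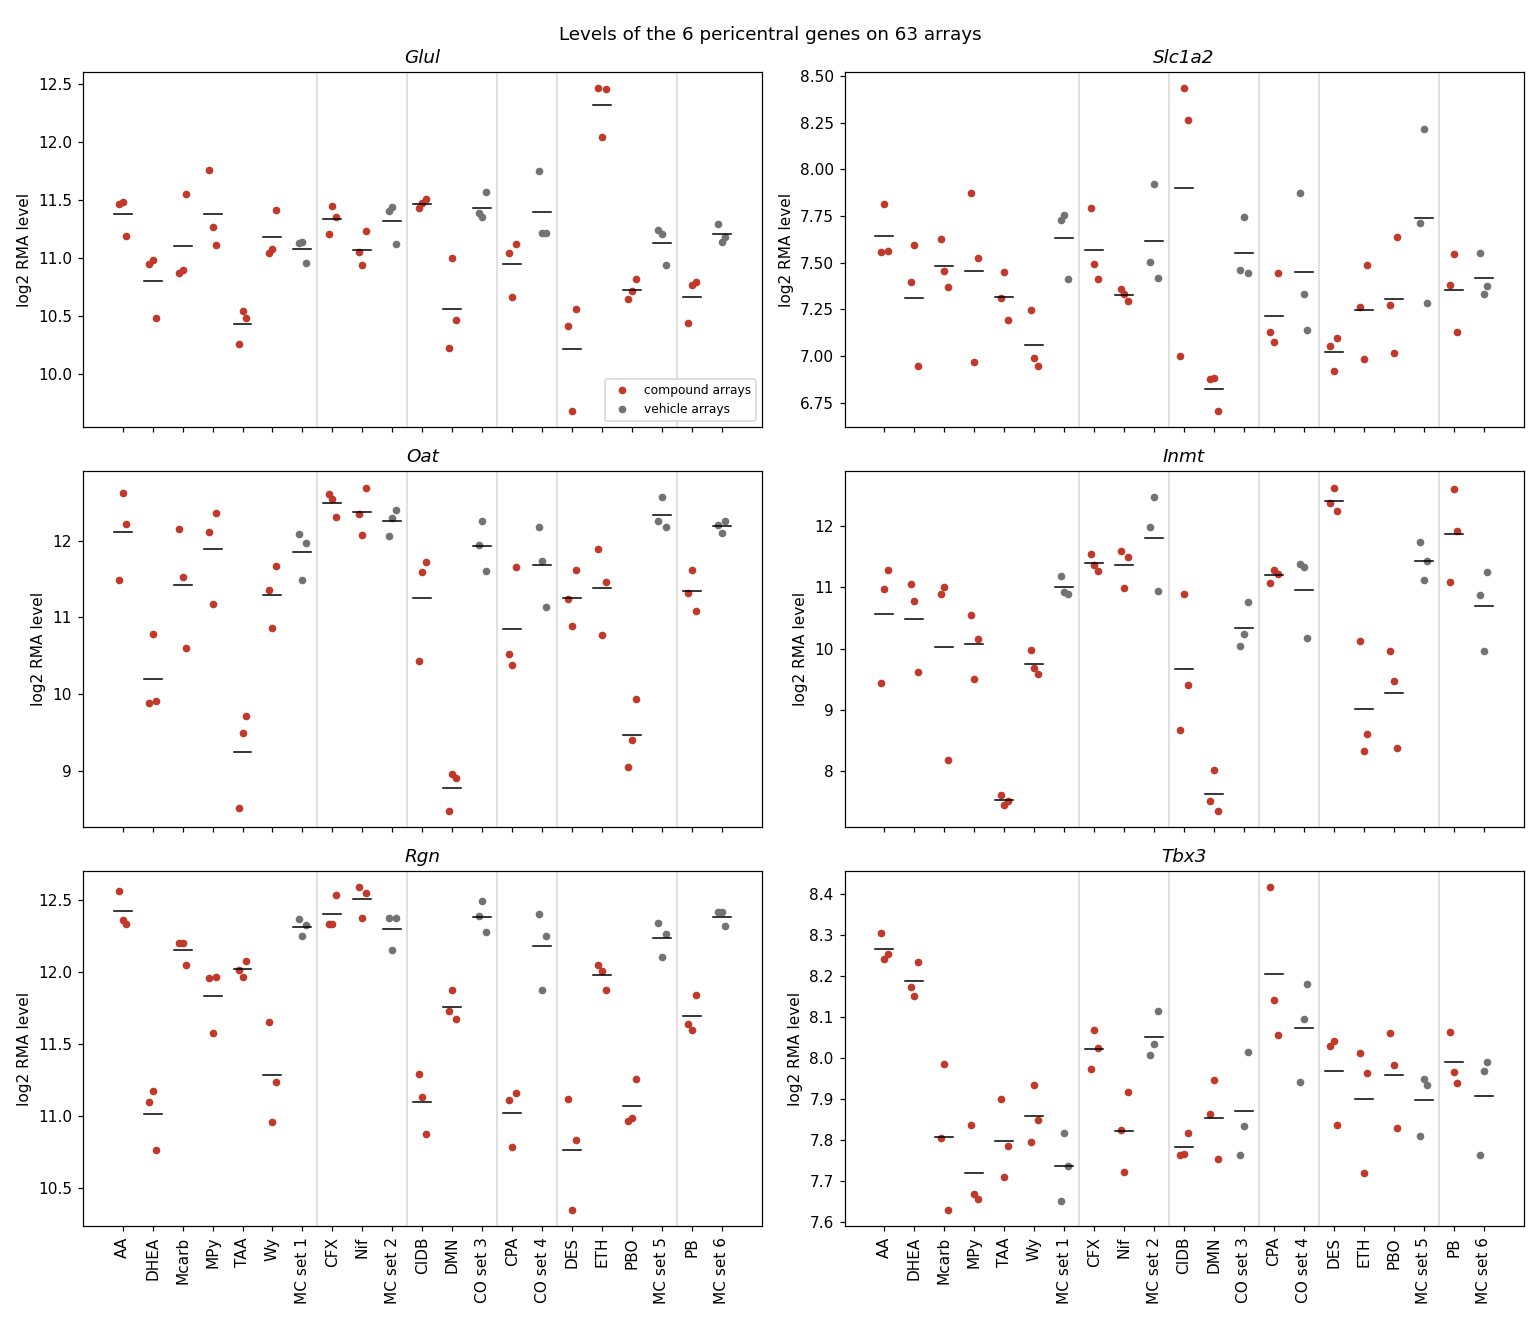
Level of each gene (vertical axis, log2 RMA value) in every group (horizontal axis), with 1 point per array and a bar at the mean of 3. Compounds stand left of their vehicle set (MC methylcellulose, CO corn oil), and Oat and Inmt lie lowest in DMN and TAA, while Glul lies highest in ETH.

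Glul encodes glutamine synthetase, which condenses glutamate and ammonia to glutamine in a narrow ring of cells around the central vein. Its levels in the 18 vehicle arrays ran from 10.94 to 11.75 log2, with a median of 11.22. Glul stood at 10.41, 9.68 and 10.56 in DES livers, against 11.24, 11.21 and 10.94 in set 5, a log2 fold change of −0.92 ± 0.19 (SE, n = 3 against 3). In DMN livers it was 10.22, 11.003 and 10.47, against 11.39, 11.36 and 11.57 in set 3, a change of −0.87 ± 0.19. All 3 animals of each compound lay below all 3 controls, with DMN replicate 2 the closest to them. In TAA livers the levels were 10.26, 10.54 and 10.48, against 11.13, 11.14 and 10.96 in set 1, a called decrease of −0.65 ± 0.19 without overlap. ETH went the other way, with 12.47, 12.04 and 12.46 in ETH livers against the same set 5 as DES, a rise of 1.19 ± 0.19 or 2.29-fold. The ETH animals were above every vehicle array of the series. PB (−0.54 ± 0.19), CPA (−0.45 ± 0.19) and PBO (−0.40 ± 0.19) did not overlap their controls but were not called, and the remaining compounds lay between −0.27 and 0.31.

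Glul and Slc1a2 each have a promoter, taken here as 250 bases before to 50 after a RefSeq gene start in build GRCr8, that holds the letters CTTTGA, the core that TCF and LEF factors bind, on either strand. Promoter entries were matched by symbol for 5 of the 6 genes, with 7 starts in all, and 2 of these 7 hold the letters, beside 16.1% of 33469 promoters of that length. Tbx3 had no entry. The pair with a match is shown because both genes are known targets of beta-catenin in the liver. Capitals mark CTTTGA or its reverse complement, read 5′ to 3′ along the gene's strand.
Glul, chr13:68519250-68519549, plus strand: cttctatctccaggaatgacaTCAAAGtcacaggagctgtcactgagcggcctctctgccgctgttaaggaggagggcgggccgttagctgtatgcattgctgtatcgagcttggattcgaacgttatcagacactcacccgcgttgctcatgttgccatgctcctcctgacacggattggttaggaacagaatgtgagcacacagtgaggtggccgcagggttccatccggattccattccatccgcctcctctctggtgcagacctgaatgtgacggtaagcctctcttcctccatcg
Slc1a2, chr3:109507697-109507996, plus strand: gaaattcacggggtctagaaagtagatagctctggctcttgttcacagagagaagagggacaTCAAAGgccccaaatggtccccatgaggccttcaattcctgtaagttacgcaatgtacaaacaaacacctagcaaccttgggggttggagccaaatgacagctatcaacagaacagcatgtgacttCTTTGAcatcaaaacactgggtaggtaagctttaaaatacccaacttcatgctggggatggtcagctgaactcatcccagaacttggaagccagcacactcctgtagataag
The Glul match starts 229 bases before the start, and the Slc1a2 matches start 188 and 62 bases before it. The other starts of Glul and Slc1a2 and those of Oat, Rgn and Inmt hold no match in this window. A match is a description of letters and was not set against the arrays.

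Slc1a2 encodes GLT-1, the transporter that brings glutamate into the pericentral hepatocyte. Its levels in vehicle arrays ran from 7.14 to 8.22, with a median of 7.48. In DES livers Slc1a2 read 7.06, 6.92 and 7.10, against 7.71, 8.22 and 7.28 in set 5, a called decrease of −0.71 ± 0.23. The control arrays spread more widely than the DES arrays, and the call was lost without set 5 replicate 1 or 2 or DES replicate 1 or 2 (largest limma adjusted p = 0.241). DMN livers had the lowest mean of any group, at 6.88, 6.88 and 6.71 against 7.46, 7.74 and 7.44 in set 3, a change of −0.73 ± 0.23 that was not called. CIDB arrays disagreed among themselves, with 7.00, 8.44 and 8.26 against the same set 3. The CIDB value was 0.35 ± 0.23 over all 3 arrays and 0.80 without CIDB replicate 1, where it was called.

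Oat encodes ornithine aminotransferase, a mitochondrial enzyme that links ornithine to glutamate and lies in the same pericentral ring as Glul. Vehicle arrays held 11.14 to 12.58, with a median of 12.14. In DMN livers Oat was 8.48, 8.95 and 8.91, against 11.95, 12.26 and 11.60 in set 3, which is 8.93-fold lower (−3.16 ± 0.37). In PBO livers it was 9.05, 9.40 and 9.94, against 12.26, 12.58 and 12.17 in set 5, or 7.31-fold lower (−2.87 ± 0.37). TAA livers had 8.51, 9.49 and 9.71, against 12.09, 11.48 and 11.97 in set 1, or 6.11-fold lower (−2.61 ± 0.37). Every array of these 3 compounds lay more than 1 log2 unit below the lowest vehicle array of the series. DHEA livers had 9.89, 10.78 and 9.90 against set 1 (−1.66 ± 0.37), again without overlap. DES livers had 11.24, 10.89 and 11.62 against set 5 (−1.08 ± 0.37). The DES call depended on single arrays: it was kept in 1 of 6 omissions, and the adjusted p reached 0.156. ETH stood at −0.96 ± 0.37, just outside the threshold. The lowest group means were those of DMN, TAA and PBO, and the intervals of these changes overlap.

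Inmt encodes indolethylamine N-methyltransferase, which methylates small amines and thioethers. It varied most among animals, from 9.96 to 12.48 in vehicle arrays with a median of 11.04. TAA livers had 7.60, 7.44 and 7.51, against 11.18, 10.93 and 10.89 in set 1, which is 11.2-fold lower (−3.49 ± 0.54). DMN livers had 7.50, 8.02 and 7.34, against 10.04, 10.23 and 10.76 in set 3 (−2.72 ± 0.54). The TAA arrays lay close together (SD 0.08, n = 3). ETH livers had 10.13, 8.32 and 8.60, against 11.75, 11.13 and 11.43 in set 5 (−2.42 ± 0.54), and PBO livers 9.96, 9.46 and 8.37 against the same set (−2.17 ± 0.54). These groups were lower than their controls in 3 of 3 animals each, but spread widely. Wy stood at −1.25 ± 0.54 without a call. The 2 highest means were in DES (12.38, 12.64 and 12.25; 0.99 ± 0.54) and PB (11.08, 12.62 and 11.93; 1.18 ± 0.54), neither called. Mcarb replicate 3 read 8.18, against 10.90 and 11.01 in the other Mcarb animals; the mean change in Mcarb was −0.97 ± 0.54 and was not called.

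Rgn encodes regucalcin, a calcium-binding protein that also serves as the gluconolactonase of vitamin C synthesis in rats. Its vehicle arrays were tight, from 11.88 to 12.49 with a median of 12.33. DES livers had 11.12, 10.35 and 10.84, against 12.34, 12.11 and 12.26 in set 5, or 2.77-fold lower (−1.47 ± 0.14). DHEA livers had 11.10, 11.18 and 10.77, against 12.37, 12.25 and 12.33 in set 1 (−1.30 ± 0.14), and CIDB livers 11.29, 11.13 and 10.88, against 12.39, 12.49 and 12.28 in set 3 (−1.28 ± 0.14). Groups did not overlap in any of the 9 called compounds, nor in TAA, ETH and Mcarb, which were not called. The share of all probe sets without overlap was not counted. PBO and CPA both stood at −1.16 ± 0.14, Wy at −1.03 ± 0.14, PB at −0.69 ± 0.14, DMN at −0.62 ± 0.14 and MPy at −0.48 ± 0.14. Rgn thus showed a smaller decrease in DMN than in CIDB, the reverse of Oat and Inmt. In TAA, where Oat and Inmt were called lower, Rgn stood at 12.01, 11.97 and 12.08 against 12.31 ± 0.06 (SD, n = 3) in set 1 (−0.30 ± 0.14, not called).

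Tbx3 encodes a T-box repressor that is a target of Wnt signals in pericentral hepatocytes. The level changed little, from 7.65 to 8.18 in vehicle arrays. AA livers had 8.30, 8.24 and 8.26 and DHEA livers 8.17, 8.15 and 8.24, against 7.65, 7.82 and 7.74 in set 1 (0.53 ± 0.09 and 0.45 ± 0.09, both called). Set 1 was the lowest vehicle set for this gene, 0.32 ± 0.09 below set 2 (adjusted p = 0.0599 in limma). With the mean of all Tbx3 probe sets the changes shrank to 0.27 in AA and 0.19 in DHEA and stayed called. Both other Tbx3 probe sets were dim and called in no compound.

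**Figure D2:**
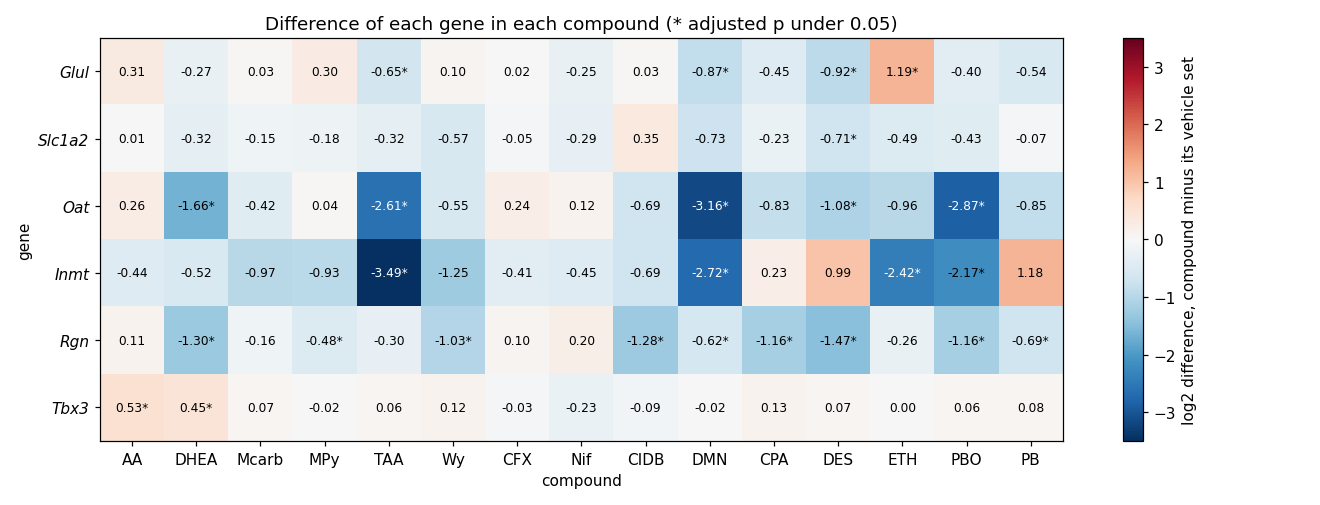
Log2 fold change of each gene (rows) in each compound (columns) against its vehicle set, 3 arrays against 3, with stars at adjusted p under 0.05. Blue is lower than vehicle and red higher, and the scale ends at 3.5 in both directions. Rgn is lower in 9 compounds, whereas the largest changes are those of Oat and Inmt.

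Read by compound, DES and DMN had the most members called. In DES 4 of 6 were lower and 0 higher, where 8.72% of all probe sets were called lower and 6.77% higher. In DMN 4 were lower and 0 higher, beside 0.92% and 2.31% of all probe sets. The median change of the 6 genes was −0.81 in DES and −0.80 in DMN, while the median over all probe sets was −0.007 and −0.016. The changes of Oat, Glul and Inmt in DMN, Rgn in DES and Tbx3 in AA were known when the genes were chosen. These counts and medians, and the order of compounds they give, partly follow from that choice and are not a test. PBO had 3 lower and 0 higher (7.46% and 7.03% of all), and TAA had 3 lower and 0 higher (3.25% and 3.15%). DHEA had 2 lower and 1 higher (8.37% and 9.3%), and ETH 1 lower and 1 higher (11.8% and 11.7%). In CIDB (5.75% lower and 8.14% higher over all probe sets), CPA (4.73% and 3.11%), MPy (3.04% and 3.28%), PB (0.384% and 0.964%) and Wy (6.45% and 6.5%) the only member called was Rgn, which was lower. AA had 1 higher, Tbx3, and 0 lower (2.74% higher and 1.92% lower over all). In CFX (0% lower and 0.0063% higher), Mcarb (0.284% and 0.782%) and Nif (4.68% and 3.78%) limma called 0 members, with 0, 0 and 1 at an unadjusted p under 0.05. Counting only the 10 compounds whose controls carry the same labelled day, 10 of 60 pairs were called lower and 3 higher, since DES, PBO and TAA hold many of the decreases.

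Vehicle sets gave the background for these changes. Of 42 differences of the 6 genes between control sets of 1 vehicle, limma called 0, and 3 had an unadjusted p under 0.05. The differences ran from −0.81 to 1.11 log2, and the upper end was Inmt in set 2 against set 6. Over all probe sets, 0.914% were called between sets 1 and 2, 2.14% between 1 and 5, 7.77% between 1 and 6, 2.72% between 2 and 5, 1.95% between 2 and 6 and 10.2% between 5 and 6 in methylcellulose, and 0.466% between the corn oil sets 3 and 4, which also differ in days.

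Compounds that shared a control set and a dosing time were compared directly, although their doses differed. This asked whether a gene's level differed between 2 compounds, in 7 contrasts and 42 differences, of which 17 were called. Differences that hold one of the known values named at the start are given without a p. The genes were chosen with results of these same arrays known, so the other p-values are descriptions too. The compound arrays are those of the comparisons with vehicle.

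DMN and CIDB, the genotoxic carcinogens, separated in 5 of 6 genes, where 12.9% of all probe sets were called. Oat was lower in DMN than in CIDB by −2.47 ± 0.37, Inmt by −2.04 ± 0.54 and Glul by −0.91 ± 0.19. Without CIDB replicate 2 the Inmt difference was −1.41 and was not called. Slc1a2 was also lower in DMN (−1.08 ± 0.23, adjusted p = 0.000702 in limma, and 0.0652 with only the 6 arrays compared), while Rgn was higher in DMN than in CIDB (0.66 ± 0.14, adjusted p = 0.00085). Tbx3 differed by 0.07, with a 95% interval from −0.10 to 0.25.

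TAA and MPy differed in 3 genes, with 2.11% called over all probe sets. Oat was 6.27-fold lower in TAA than in MPy (−2.65 ± 0.37, limma adjusted p = 3.78e-06), Inmt 5.87-fold lower (−2.55 ± 0.54, adjusted p = 0.0033) and Glul 1.93-fold lower (−0.95 ± 0.19, adjusted p = 0.00157). Rgn differed by 0.19, with an interval from −0.10 to 0.47.

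DES and PBO had 2 called differences, beside 12.2% over all probe sets. Inmt was 8.91-fold higher in DES than in PBO (3.16 ± 0.54, limma adjusted p = 2.07e-05) and Oat 3.45-fold higher (1.79 ± 0.37, adjusted p = 0.000368). All DES animals lay above all PBO animals for both genes. Glul was −0.51 ± 0.19 and did not pass (adjusted p = 0.0642).

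DHEA was lower than AA in Oat (−1.92 ± 0.37, limma adjusted p = 0.000142), Rgn (−1.41 ± 0.14, adjusted p = 1.8e-10) and Glul (−0.58 ± 0.19, adjusted p = 0.0313), where 13.3% of all were called. The Glul call was lost without AA replicate 1 or 2 or DHEA replicate 3. DHEA was lower than Mcarb in Rgn (−1.14 ± 0.14, adjusted p = 4.41e-08) and Oat (−1.23 ± 0.37, adjusted p = 0.0117), and higher in Tbx3 (0.38 ± 0.09, adjusted p = 0.00101), where 20.5% of all were called. The Oat groups of DHEA and Mcarb overlapped, and that call was lost without DHEA replicate 1 or 3 or Mcarb replicate 1. With only the 6 arrays compared, limma called neither Oat (adjusted p = 0.0813) nor Tbx3 (adjusted p = 0.0565) between DHEA and Mcarb. AA and Mcarb had a called difference in Tbx3 alone (0.46 ± 0.09), with 5.17% called over all, and this call was also lost with only the 6 arrays. Nif and CFX, both non-carcinogens, had 0 of 6 called by limma (1 at an unadjusted p under 0.05, Tbx3 at −0.20 ± 0.09), beside 8.34% over all probe sets.

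**Figure D3:**
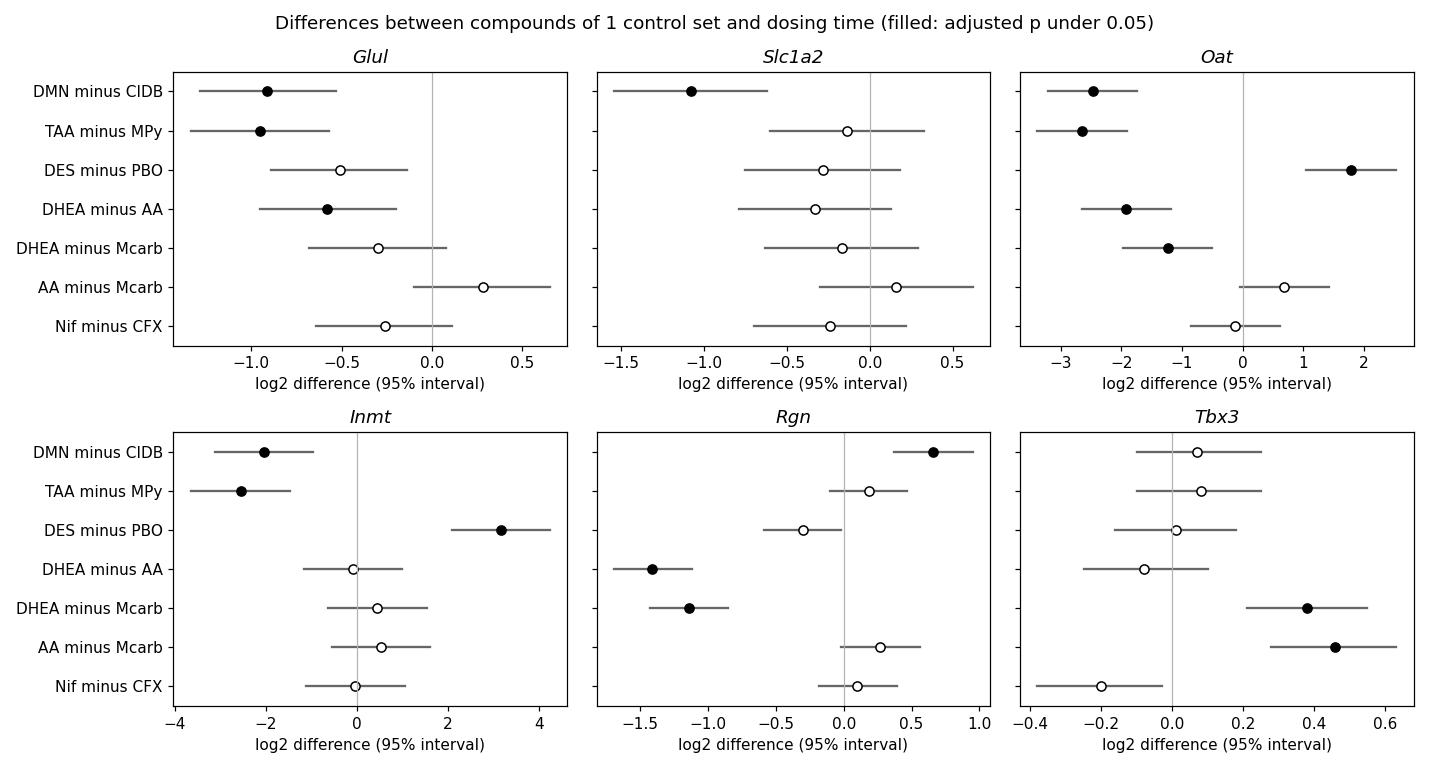
Difference between 2 compounds of the same control set and dosing time (horizontal axis, log2, first minus second) for each gene, with 95% intervals from limma. Filled points have an adjusted p under 0.05, and Inmt lies furthest right for DES minus PBO at 3.16.

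The thio compound TAA and its oxygen analog AA were given at unlike doses and times, so their values are set side by side only. Against set 1, Oat was −2.61 ± 0.37 in TAA and 0.26 ± 0.37 in AA, and Inmt was −3.49 ± 0.54 in TAA and −0.44 ± 0.54 in AA. Glul was −0.65 ± 0.19 in TAA and 0.31 ± 0.19 in AA.

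Classes were compared over compounds, which share control sets. The 8 non-genotoxic carcinogens (NGC) were AA, DES, DHEA, ETH, Mcarb, MPy, PB and PBO. The 2 genotoxic carcinogens (GC) were CIDB and DMN, and the 2 non-carcinogens (NC) were CFX and Nif. The 6 genes gave 18 contrasts, of which 10 hold one of the known values named at the start and are given without a p. Among these, Oat averaged −1.92 in GC and 0.18 in NC, and Tbx3 averaged 0.16 in NGC and −0.13 in NC. The other 8 draw on the same arrays whose results were known when the genes were chosen, so their p-values are descriptions too. Of these 8, limma called 0, with a lowest adjusted p of 0.584. By unadjusted limma p, 1 was under 0.05: Rgn, at a mean of −0.95 in GC and 0.15 in NC. By the exact two-sided permutation test over compounds 0 of the 8 had a p under 0.05, where the test cannot go below p = 0.333 for GC against NC and 0.0222 for NGC against NC or GC. Over all probe sets, 0.0189% were called for NGC against NC, 0.0819% for NGC against GC and 0% for GC against NC.

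Glul had 3 probe sets, which read the same arrays separately and had mean levels of 11.1 (the one used above), 10.58 and 9.98. ETH was called higher in all 3 (1.19 ± 0.19, 0.99 ± 0.25 and 1.24 ± 0.21), and DES and DMN were called lower in all 3. They disagreed elsewhere. The probe set of mean level 10.58 was called lower in PBO (−1.23 ± 0.25), PB (−0.93 ± 0.25) and TAA (−1.16 ± 0.25), whereas that of mean level 9.98 stood at 0.05 ± 0.21, −0.44 ± 0.21 and −0.53 ± 0.21 in these compounds and was not called. In Nif, the dimmest was called lower (−1.01 ± 0.21), while the middle one stood at 0.01 ± 0.25 and the brightest at −0.25 ± 0.19. Whether Glul was called in Nif, PB, PBO or TAA therefore depended on the probe set read, although all 3 stood below vehicle in PB and TAA. The other probe set of Slc1a2, with a mean level of 4.99, was called in no compound.

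**Figure D4:**
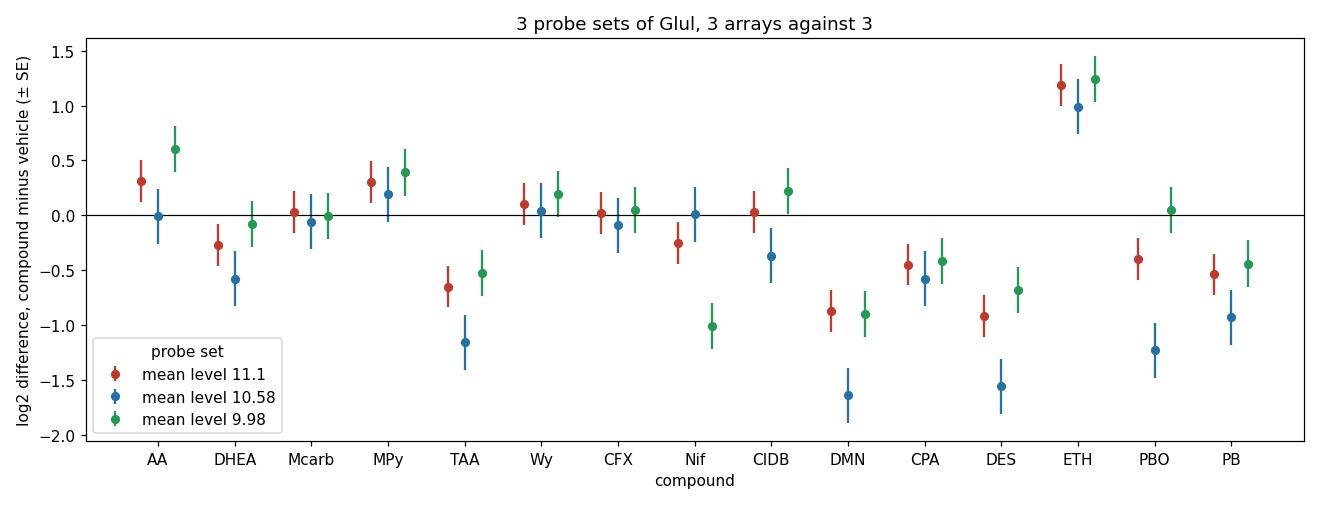
Log2 fold change of Glul (vertical axis, ± SE, 3 arrays against 3) by compound for its 3 probe sets, named by their mean level. The 3 agree on a rise in ETH and a decrease in DES and DMN, and part in Nif and PBO.

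Oat and Inmt moved together most closely among the 15 pairs of members. Pearson r was 0.68 over the 63 arrays, and 0.44 over the deviations of the arrays from their own group means, a description over arrays that share their groups. Oat and Slc1a2 correlated at 0.54 over arrays and at 0.62 within groups, the highest within-group value. Oat and Glul stood at 0.50 and 0.27, and Oat and Rgn at 0.51 and 0.26. Over arrays, r was 0.00 for Inmt and Glul, 0.06 for Inmt and Rgn and 0.00 for Tbx3 and Oat. Some animals with low Inmt within their group had low Oat as well. AA replicate 1 had 9.44 for Inmt and 11.49 for Oat, against 10.97 and 12.63 in AA replicate 2. Mcarb replicate 3 had 8.18 and 10.60, against 10.90 and 12.15 in Mcarb replicate 1. In PBO the order was reversed: replicate 3 had 8.37 for Inmt and 9.94 for Oat, against 9.96 and 9.05 in PBO replicate 1.

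**Figure D5:**
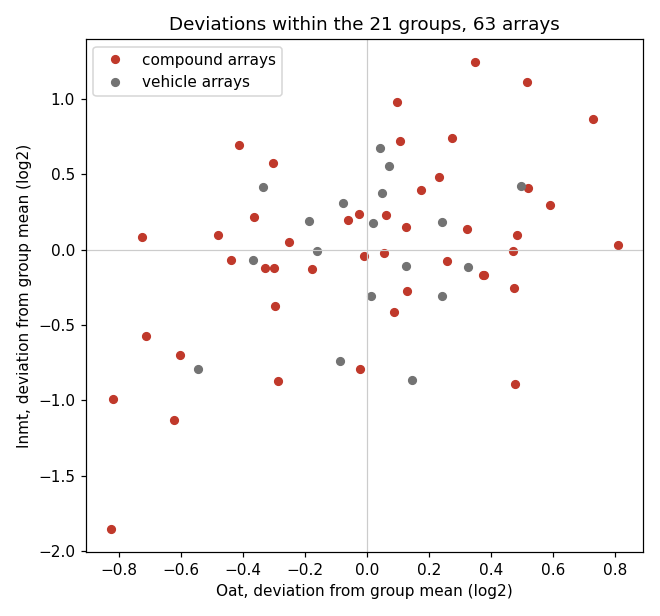
Deviation of each array from its group mean for Oat (horizontal axis, log2) and Inmt (vertical axis, log2), 63 arrays. The lowest point is Mcarb replicate 3, and r is 0.44.

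The genes whose levels ran most like each member over the 63 arrays were found among all single-symbol genes. For Rgn they were Gulo (r = 0.86), which makes vitamin C from the lactone that Rgn forms, Papss2 (0.81), which makes the sulfate donor PAPS, and Pnp (0.81), a purine salvage enzyme. Within groups, r of Rgn with these was 0.34, 0.44 and 0.12. For Glul they were Slc13a3 (0.76), a dicarboxylate carrier, Rcl1 (0.68) and C4bpb (0.67). For Oat they were Papss2 (0.69), Smpd3 (0.68) and Slc16a10 (0.67), an aromatic amino acid carrier. For Inmt they were Cyp3a9 (0.69), Hpd (0.68), which degrades tyrosine, and Pxmp2 (0.66). For Slc1a2 they were Cyp1a2 (0.59), a pericentral P450, Cdh11 (0.58) and Pkdcc (0.57), and for Tbx3 Wbp2 (0.79), LOC100911992 (0.77) and Mllt1 (0.76). Within groups, r in the same order was 0.62, 0 and 0.44 for Glul and 0.59, 0.24 and 0.64 for Oat. It was 0.62, 0.4 and 0.42 for Inmt, 0.17, 0.48 and 0.41 for Slc1a2, and 0.53, 0.63 and 0.53 for Tbx3. The lowest r belonged to Ablim3 for Rgn (−0.77), Ephx1 for Oat (−0.66), Nup205 and Bcas2 for Inmt and Tbx3 (−0.67 each), Isyna1 for Glul (−0.62) and Adpgk for Slc1a2 (−0.52).

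Other pericentral genes, 15 of 22 listed being measured, were read first in the 5 compounds with the most members called. These were DES, DMN, DHEA, PBO and TAA, the last 3 tied. Counts for this and the following lists stand against the shares of all probe sets called in each compound, given above. In DMN 5 were called lower and 0 higher, with a list median of −0.39: Avpr1a, a vasopressin receptor (−1.45), Cyp1a2 (−1.30), Gulo (−0.78), Slc13a3 (−0.76) and Cyp2e1, the P450 of small solvents (−0.71). In DES 4 were lower and 0 higher (median −0.36), led by Gulo (−2.38) and Csad, a taurine synthesis enzyme (−2.37). In PBO 4 were lower and 0 higher (median −0.37), among them Gulo (−1.27) and Avpr1a (−0.98). TAA had 3 lower and 0 higher (median −0.18), Slc13a3 (−0.95), the tight junction gene Cldn2 (−0.68) and Rnase4 (−0.43), and DHEA had 3 lower and 1 higher (median −0.03), Gulo (−0.87) and Cyp2e1 (0.40) among them. The decreases were not particular to these compounds. ETH had 5 lower and 2 higher, and CPA and Wy, where Rgn was the only member called, had 4 lower and 0 higher each. CIDB had 1 lower and 2 higher, Nr1i3 (1.28) and Cyp2e1 (0.58). AA had 0 lower and 1 higher, Cyp2e1 (0.48).

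Periportal genes, 17 of 21 measured, were called lower in 0 and higher in 0 in DMN (list median 0.03) and lower in 0 and higher in 1 in TAA (0.04), the compounds with the lowest Oat and Inmt. In PBO 9 were lower and 0 higher (−0.59), with Sds, serine dehydratase (−2.32), Hal, histidine ammonia lyase (−1.59), and Gls2, the liver glutaminase (−1.26). In DHEA 10 were lower and 1 higher (−0.47), among them Pck1 (−0.96), and in DES 4 were lower and 1 higher (−0.09), the higher one being Sds (1.71). Where Oat was called lower, periportal genes were called lower in PBO, DHEA and DES and not in DMN and TAA. Over all probe sets, 7.46% were called lower in PBO, 8.37% in DHEA and 8.72% in DES. The share was 0.92% in DMN and 3.25% in TAA, so 0 of 17 lies near it.

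The enzymes around Glul, Oat and Slc1a2, a list of 15 measured genes of glutamate, glutamine and ornithine metabolism, were called lower in 7 and higher in 0 in DES and lower in 7 and higher in 1 in PBO. The gene higher in PBO was Asns (0.77). DHEA had 4 lower and 2 higher, Asns (2.46) and Odc1 (0.77). TAA had 1 lower and 2 higher, Odc1 (0.69) and Asns (0.66). Prodh, proline dehydrogenase, stood at −1.19 in DES, −1.85 in PBO, −1.05 in DHEA and −1.05 in TAA, and Gls2 at −1.16 in DES and −1.26 in PBO. In ETH, where Glul rose, 6 were lower and 6 higher, with Got1 (0.81) and Odc1 (0.60) higher and Prodh (−1.50) and Gpt (−1.05) lower. In DMN 0 were called by limma in either direction. Of the listed Wnt and beta-catenin pathway genes, 15 of 20 were measured. In each of DES, DMN, DHEA and PBO 1 was called lower, and in TAA 0. These were Axin1 in DES (−0.29), the receptors Fzd1 in DMN (−0.55) and Fzd4 in DHEA (−0.74), and Ctnnb1, which encodes beta-catenin, in PBO (−0.25). Over all probe sets 8.72% were called lower in DES, 8.37% in DHEA and 7.46% in PBO, so 1 of 15 lies near these shares. The share was 0.92% in DMN and 3.25% in TAA. In ETH 4 were lower and 0 higher, Fzd1 (−0.54), Lrp6 (−0.39), Dvl1 (−0.37) and Ctbp1 (−0.30). In AA, where Tbx3 was called higher, 0 were lower and 2 higher, Lef1 (0.40) and Csnk1a1 (0.35). Lef1 was dim, at 5.76 in AA against 5.36 in set 1. Csnk1a1 was also higher in CIDB (0.53), where Tbx3 was not called, and lower in CPA (−0.43). Of 5 genes of vitamin C synthesis, Gulo was called lower beside Rgn in DES, DMN, DHEA, PBO, CIDB, CPA and Wy, and also in ETH (−0.68), where Rgn was not called. Ugp2 was lower in DHEA (−1.47) and Wy (−1.37), while Ugdh was higher in PBO (0.67) and CPA (0.72), and Akr1a1 in PBO (0.33), TAA (0.53), ETH (0.44) and MPy (0.32).

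Markers of other cells moved in some of the same livers. Macrophage markers, 7 of 10 measured, were called higher in 7 in ETH, with a list mean of 10.21 to 10.31 in ETH arrays against 8.79 to 9.34 in set 5, and in 4 in DMN, with 9.83 to 10.09 in DMN arrays against 8.78 to 9.29 in set 3. In TAA, where Oat and Inmt fell too, 0 of 7 were called (9.25 to 9.64 in TAA arrays against 9.39 to 9.63 in set 1). Macrophage markers were called lower in 5 in DHEA, 4 in CPA and 3 in Wy, and higher in 3 in CIDB. In Mcarb 2 were called higher, with a list mean of 9.82 to 10.93 in Mcarb arrays against 9.39 to 9.63 in set 1.

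Hepatocyte markers, 9 measured, were called lower in 0 and higher in 1 in DMN, lower in 1 and higher in 0 in TAA, lower in 2 and higher in 1 in DES and lower in 2 and higher in 2 in PBO. They were called lower in 5 and higher in 2 in DHEA, with a list mean of 12.75 to 12.86 in DHEA arrays against 12.83 to 12.89 in set 1, and lower in 5 and higher in 0 in Wy, with 12.69 to 12.77 in Wy arrays against the same set. Stellate and matrix markers, 10 measured, were lower in 5 in DHEA, with 7.37 to 7.57 in DHEA arrays against 8.01 to 8.04 in set 1, and lower in 5 in CPA, with 7.21 to 7.34 in CPA arrays against 7.81 to 7.92 in set 4. In DMN 1 of them was lower, Col3a1 (−0.60), and 2 were higher, Vim (1.04) and Timp1 (1.02), with a list median of −0.13. In DES and in ETH 1 was lower and 3 were higher (list medians 0.21 and 0.11), and in Nif 0 and 2. Endothelial markers, 7 measured, were lower in 4 in DHEA, with 7.66 to 7.85 in DHEA arrays against 8.09 to 8.17 in set 1. They were also lower in 4 in Wy. In DES 0 were lower and 2 higher, Lyve1 (0.95) and Tie1 (0.24). Lyve1 was also higher in ETH (0.52) and Nif (0.67). Kdr, a receptor of vascular endothelium, was lower in DMN (−0.77), DHEA (−0.79), PBO (−0.66), CPA (−0.90) and Wy (−0.71). In CIDB all 4 erythroid markers measured were lower, with a list mean of 7.99 to 8.19 in CIDB arrays against 10.48 to 10.96 in set 3 and Hbb, a globin chain, at −4.91. The part of these cells in the changes of the 6 genes was not tested.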

How the data were processed

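Livers were profiled on Affymetrix RAE230A arrays. The authors made the deposited log2 values with RMA, which corrects background, normalizes between arrays and summarizes each probe set (version not given in the sources used here). The 15866 probe sets ran from 3.96 to 15.11, with array medians of 7.421 to 7.51, and no further normalization was applied. No columns were identical, and each array correlated with its group at 0.9886 to 0.9956. The annotation gave 1 symbol to 12783 probe sets, several to 312 and none to 2771.

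The fit gave each group its own mean and drew on the 63 arrays together (limma 3.58.1, R 4.3.3, 42 residual degrees of freedom). The Benjamini-Hochberg adjustment covered every probe set, with a call at 0.05. Errors are SEs from this fit unless named SD. An exact test of 3 against 3 cannot go below p = 0.1. The procedure was tested on simulated data. Array number limits the precision. Per the methods, the arrays of a group come from separate animals.

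The members and gene lists were chosen with earlier results of these data known. Named genes are the 6 members, for each the 3 genes with the highest and the 1 with the lowest r, and called genes of the lists with the largest changes. Promoters came from RefSeq, GRCr8. PB and CPA share title numbers with their controls, but same-numbered arrays did not deviate together (r from −0.15 to 0.17), so no pairing was used. Alternatives covered the arrays fitted, pooled controls, weights, normalization, variance model, probe set choice, filters, thresholds and omitted arrays. Figures were drawn with matplotlib 3.10.9.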

Additional observations from a re-analysis of the deposited data

Results flagged for a closer look

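Compounds that shared controls and dosing time differed in 17 of 42 direct contrasts, which drew attention because the same gene responded unlike in the 2 compounds. For DMN minus CIDB these were Oat (−2.47), Inmt (−2.04), Slc1a2 (−1.08), Glul (−0.91) and Rgn (0.66), all in log2. For TAA minus MPy they were Oat (−2.65), Inmt (−2.55) and Glul (−0.95). For DES minus PBO they were Inmt (3.16) and Oat (1.79). For DHEA minus AA they were Oat (−1.92), Rgn (−1.41) and Glul (−0.58), and for DHEA minus Mcarb Oat (−1.23), Rgn (−1.14) and Tbx3 (0.38). For AA minus Mcarb it was Tbx3 (0.46). With each array left out in turn, some omissions ended the calls of Inmt for DMN minus CIDB and Glul for DHEA minus AA. The same held for Oat for DHEA minus Mcarb, and the other calls were kept. Groups of 3 arrays were too small to say whether a single animal is an outlier.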

How the results depend on the processing

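Of the 25 called pairs of gene and compound, 21 kept their call at an adjusted p under 0.05 under every other fit tried with all arrays or the 6 compared, 18 also passed an adjusted p under 0.01 and a fold of at least 1.5, and 19 kept it with each of their 6 arrays left out in turn. No called change reversed. The count of pairs called lower, 22 in the main setting, ran from 16 to 18 with a replicate omitted from every group, and was 28 with only the 6 arrays compared and 32 with controls pooled by vehicle. The count called higher stayed at 3 with a replicate omitted, and fell to 1 when a fold of at least 1.5 was also required, since both Tbx3 changes are smaller. Over compounds with controls of the same labelled day, chosen after seeing the data, 10 pairs were called lower. With a replicate block on the 6 arrays of PB and of CPA, 1 pair was called lower instead of 2: Rgn in PB was lost (adjusted p = 0.126), and over all probe sets the block called 30 in PB and 953 in CPA, against 51 and 873 without it. Oat in DES was lost with array weights and with quantile normalization repeated, Rgn in MPy with the latter, and Slc1a2 in DES with array weights and with 6 arrays. Single omitted arrays ended Glul in DMN (DMN replicate 1), Glul in TAA (4 of 6 arrays), Rgn in DMN (set 3 replicate 2) and Rgn in MPy (4 of 6). Of the 17 called direct contrasts, 4 were lost with 6 arrays only. The cause was not tested.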
